A study of Drosophila melanogaster with 2 samples.

Results

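The genes described here are 10 transcription factor genes that set up the anterior and gap domains of the early Drosophila melanogaster embryo: the maternal genes bcd and cad, the gap genes hb, Kr, kni, gt and tll, and the head gap genes oc (also called otd), ems and btd. They were taken as a named list, 10 of the 13968 protein-coding genes annotated on the chromosome arms, and not for any value measured here. What was measured is where the Hox protein Sex combs reduced (Scr), fused to eGFP, was recovered on chromatin. Whole embryos aged 0 to 24 h, from a transgenic strain labelled Scr-GFP that carries an insertion targeting Scr, were immunoprecipitated with an antibody to GFP, although the antibody field of the labels names Scr. DNA fragments of 200 to 800 bp were made by sonication, and the reads were turned by the authors into lists of peaks on the dm6 assembly. There is 1 group with 2 biological replicates of the same strain, both carrying the transgene, so no group serves as a reference and every value below is a description without a test. Because whole embryos of a wide age range were pooled, the lists hold no information on which cells or stages gave a peak.

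Anterior-posterior patterning of the fly embryo starts from maternal RNAs. Bicoid, made from RNA anchored at the anterior pole, forms a gradient that activates zygotic genes and represses translation of maternal cad RNA, so that Caudal protein is restricted to the posterior. The gap genes read these gradients in broad, overlapping stripes, repress one another at their borders, and set the limits of the Hox genes, Scr among them. The head gap genes act ahead of the trunk gap domains. Scr acts later than most of these factors, in the labial and first thoracic segments and in the salivary gland primordium. Long-range enhancers lie upstream, downstream and in introns of many of the 10 genes, but the annotation used here marks no enhancers, so an entry in a flank is given by its distance alone.

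An entry is 1 peak of a list, with its summit, its score and its signal. The signal is the authors' own height for that entry, with no scale stated in the labels or files, so it was used to order entries within a list. The replicates' signals are set side by side with no scaling between them, and sequencing depth is unknown from the files. The main thresholded list, made from both replicates, held 5720 entries on the arms, and the conservative thresholded list, made from the same inputs, held 5671. Replicate 1's own thresholded list held 4462 and replicate 2's held 4376. Each has a ranked list that also holds entries below the authors' threshold, with 77377, 76820, 67592 and 71892 entries. The threshold lies at an irreproducible discovery rate (IDR, a measure of how poorly an entry's rank repeats) of about 1%. An entry was called own promoter when its summit lay within 500 bp of a transcription start site of the gene and of no other gene, neighbour promoter when it lay that close to another gene only, and otherwise gene body or flank, up to 10 kb on either side. Only the starts of protein-coding genes were used for these classes, so a start of a noncoding gene did not change an entry's class.

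In the main list 6 of the 10 genes had an own-promoter entry. They were bcd and cad of the maternal genes, kni of the trunk gap genes, and all 3 head genes, oc, ems and btd. No own-promoter entry lay at hb, Kr, gt or tll. Over all protein-coding genes 36.2% had a summit within 500 bp of a start site, shared with another gene or not, in the same list, so 6 of 10 stands above that share, on a list too short to say more. With the gene body and 10 kb on either side included, 7 of 10 had an entry, gt being the addition, against 70.9% of all genes, which is the same share. The windows held 12 main-list entries in all, of which 6 were at own promoters, 3 at promoters of neighbours, 1 in an upstream flank, 2 in downstream flanks and 0 inside a gene body. Over the whole main list 80.1% of entries lay within 500 bp of a protein-coding start and 19.9% did not, so most entries lie at promoters in general.

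The base sequence under the 6 own-promoter summits is shown because these summits are the strongest thresholded entries assigned to the 10 genes themselves, and because they differ from one another in composition. Each is the 101 bp centred on the main-list summit, on the strand of the gene, 5′ to 3′, from the release 6 genome, with matches to the listed sites described further on in capitals. The last is the strongest main-list summit in the windows that was not at an own promoter. It lies in the window of btd, near the promoter of the neighbour nej, and is given on the plus strand. The windows are 3R:6759526-6759626 (minus strand) for bcd, X:8650901-8651001 (minus) for oc, 2L:20770508-20770608 (plus) for cad, 3L:20695535-20695635 (minus) for kni, 3R:13901690-13901790 (plus) for ems, X:9694032-9694132 (plus) for btd and X:9685978-9686078 for nej.
bcd: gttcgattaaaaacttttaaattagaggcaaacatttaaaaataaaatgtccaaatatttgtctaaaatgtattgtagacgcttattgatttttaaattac
oc: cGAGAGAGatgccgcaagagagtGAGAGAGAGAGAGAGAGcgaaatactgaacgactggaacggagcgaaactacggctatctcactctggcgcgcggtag
cad: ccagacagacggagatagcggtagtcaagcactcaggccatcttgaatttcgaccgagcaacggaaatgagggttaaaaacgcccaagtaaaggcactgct
kni: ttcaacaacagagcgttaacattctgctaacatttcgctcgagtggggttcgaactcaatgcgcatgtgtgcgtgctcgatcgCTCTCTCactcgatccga
ems: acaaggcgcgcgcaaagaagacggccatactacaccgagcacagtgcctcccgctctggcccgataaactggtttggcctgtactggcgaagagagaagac
btd: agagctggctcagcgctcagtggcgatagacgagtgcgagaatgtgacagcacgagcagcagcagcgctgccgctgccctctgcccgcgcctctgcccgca
nej: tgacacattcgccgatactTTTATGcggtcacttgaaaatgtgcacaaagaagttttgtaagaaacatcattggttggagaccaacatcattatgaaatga
The most visible contrast is between bcd, whose window is largely A and T, and the other own-promoter windows, with runs of GAGA in oc and of GC-rich trinucleotides in btd. The nej window also held more A and T than G and C, at 36.6% G+C.

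bcd (FBgn0000166, 3R 6755842 to 6759466, minus strand), the anterior determinant, had the strongest own-promoter entry of the 10 genes. Its signal was 132 in replicate 1 and 113 in replicate 2, and 246 in the main list, where it ranked 1867 of 5720. It was the only one of the 6 present in both replicates' thresholded lists, with summits at 119 bp and 109 bp upstream of the start site and at 110 bp upstream (3R 6759576) in the main list. The peak was narrow, at 157 bp in replicate 1, 136 bp in replicate 2 and 244 bp in the main list, where 544 bp was the commonest width and 6.49% of entries were 250 bp or less. The other 5 genes' own-promoter entries all had the commonest width. Among the 2344 genes with an entry at a start shared with no other gene, the signal at bcd lay at the 62.5th percentile, and the other 5 lay between 23.1 and 48.0 on the same scale.

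bcd sits in the Antennapedia complex among zen, Ama and CG34297. Its neighbour Ama, which encodes a secreted immunoglobulin-domain protein, had a promoter entry just outside the threshold, at an IDR of 1.38% and a signal of 53.2. The strongest bcd entry away from its promoter lay 7188 bp downstream of the start, with a signal of 62.9. Its IDR was 45.1% in the main ranked list and 1.74% in the conservative one.

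cad (FBgn0000251, 2L 20770731 to 20783135, plus strand), the posterior homeodomain gene, had a signal of 37.0 in replicate 1 and 64.2 in replicate 2. The first was in the ranked list only, at an IDR of 2.21%, and the second passed the threshold at 0.17%. In the main list the entry had a signal of 112 and a summit 173 bp upstream (2L 20770558). Further entries that did not pass lay in the coding sequence at 590 bp past a start (55.9, IDR 3.61%) and at 7018 bp upstream (58.8, IDR 5.88%), inside coding sequence of the neighbour dia. The strongest entry of the cad window was not near cad. It lay 12 bp inside the start of Pomp, a proteasome maturation factor gene 4.53 kb beyond the end of cad, with 94.0 in replicate 1, 120 in replicate 2 and 208 in the main list. In replicate 1's thresholded list the Pomp entry is the reason cad counts as having an entry within 10 kb.

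hb (FBgn0001180, 3R 8690980 to 8697822, minus strand), a zinc finger gene with maternal and zygotic transcripts, had no thresholded entry within 10 kb in any of the 4 lists. At the distal of its annotated start sites the strongest ranked entries had a signal of 24.8 in replicate 1, 39.7 in replicate 2 and 45.5 in the main ranked list. Their IDR was 22.1%, 2.17% and 56.2%, so the entry of replicate 2 came nearest to the threshold. The summits differed by replicate, at 201 bp upstream in replicate 1 and 98 bp downstream in replicate 2. Within 500 bp of the proximal start, the one Bicoid is known to act on, the signals were 18.9 in replicate 1 and 22.4 in replicate 2. The main ranked list had 19.6 there, with an IDR of 84.3%. These summits also differed, at 489 bp downstream in replicate 1, inside the coding sequence, and 66 bp downstream in replicate 2. The main ranked summit was 107 bp downstream. An entry within 20 kb did pass, so hb joins the count when the flank is widened.

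Kr (FBgn0001325, 2R 25226611 to 25231394, plus strand), the central gap gene, differed from the other 9 in having no entry at all in most lists. The main, conservative and replicate 2 ranked lists held 0 entries in the gene or within 10 kb, and 0 within 20 kb. Replicate 1's ranked list held 4, the strongest with a signal of 15.9 and an IDR of 16%, 411 bp upstream of the start. The ranked lists begin to hold entries again within 50 kb, with 9 in the main, 7 in the conservative, 11 in the replicate 1 and 8 in the replicate 2 list. The gene lies near the distal end of its arm. Whether reads can be placed uniquely in this stretch was not tested, so the lack of entries was not read as an absence of Scr.

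kni (FBgn0001320, 3L 20692330 to 20695378, minus strand), a nuclear receptor family gene of the abdominal gap domain, passed the threshold at its promoter in replicate 2 and fell far short of it in replicate 1. Its signal was 26.5 in replicate 1, at an IDR of 71.5%, and 74.5 in replicate 2, at 0.112%, with summits at 269 bp and 206 bp upstream. The main list has it at 97.1 and 207 bp upstream (3L 20695585). In the conservative ranked list the same entry had an IDR of 4.61%, against 0.0873% in the main ranked list, and so missed the conservative list. An entry 11343 bp past a start site, in the downstream flank, came just short of the main threshold with a signal of 76.6 and an IDR of 1.97%, and was at 64.5% in the conservative ranked list. The replicates' ranked lists differed there, with 59.6 at an IDR of 5.65% in replicate 1 and 19.3 at 89.5% in replicate 2. No other gene of any annotated type overlaps the kni window.

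gt (FBgn0001150, X 2427113 to 2428967, minus strand), a leucine zipper gap gene, had no promoter entry past the threshold. Ranked entries at its start had a signal of 25.9 in replicate 1, 25.8 in replicate 2 and 50.2 in the main ranked list, where the summit fell 114 bp past the start, in the 5′ UTR. That entry's IDR was 61.5% in the main ranked list and 3.51% in the conservative one. Its only main-list entry was 7.40 kb past the end of the gene (X 2419718), with a signal of 59.0 and an IDR of 0.55%. Neither replicate's own list had that entry, and their ranked lists gave it 23.8 with an IDR of 72.0% in replicate 1 and 46.0 with 3.73% in replicate 2.

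tll (FBgn0003720, 3R 30852315 to 30854400, plus strand), the terminal gap gene downstream of the Torso receptor, had the weakest promoter entries of the genes other than Kr. They were 16.6 in replicate 1, with an IDR of 61.6%, none in replicate 2, and 14.9 with an IDR of 84.3% in the main ranked list. The strongest tll entries were a little inside the coding sequence, 919 bp past the start (44.1), and 8107 bp upstream (42.7). The IDR of the first was 56.9% in the main and 6.30% in the conservative ranked list. That of the second was 6.58% in the main and 60.9% in the conservative.

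oc (FBgn0004102, X 8630159 to 8650681, minus strand), a homeodomain gene of the head, had the second strongest own-promoter entry in the main list and in replicate 1, and the fourth in replicate 2's ranked list. Its signal was 73.9 in replicate 1 and 62.3 in replicate 2, and 143 in the main list, with a summit 270 bp upstream of the outermost start (X 8650951). Replicate 1's entry passed the threshold and replicate 2's did not, at an IDR of 15.3%. The next start site inside the gene is 463 bp from the same summit, and the innermost had no main-list entry within 500 bp. A second main-list entry lay 5.12 kb past the end of the gene (X 8625037) with a signal of 78.2. Its ranked entry had 43.0 in replicate 1, at an IDR of 1.93%, and replicate 2's ranked list held none there.

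ems (FBgn0000576, 3R 13901853 to 13904620, plus strand), a homeodomain gene of the head and trachea, had its entry at a similar place in both ranked lists, at the 94.2nd percentile in replicate 1 and the 94.5th in replicate 2. The signals were 49.5 in replicate 1 and 52.2 in replicate 2, but the first fell short at an IDR of 1.71% and the second passed at 0.485%. The main list gave 94.0 at 113 bp upstream (3R 13901740). No other entry of the ems window passed.

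btd (FBgn0000233, X 9694186 to 9697558, plus strand), an Sp family zinc finger gene of the head, had 56.1 in replicate 1, past the threshold, and 46.3 in replicate 2, below it at an IDR of 11.6%. The summits fell on either side of the start, at 131 bp upstream in replicate 1 and 91 bp downstream in replicate 2. The main-list summit was at 104 bp upstream with a signal of 91.2. A further entry at 1376 bp upstream (X 9692810, 61.4) lay within 500 bp of the start of the noncoding gene lncRNA:CR44016. Neither replicate's thresholded list had it, and the ranked lists gave 35.4 with an IDR of 1.52% in replicate 1 and 35.3 with 1.78% in replicate 2. The strongest entries of the window belonged to the neighbour nej, which encodes the acetyltransferase CBP. nej has several annotated starts, and the summits are given from the nearest. One, at X 9686028, lay 361 bp upstream of one start, with 176 in replicate 1, 114 in replicate 2 and 288 in the main list, and the other, at X 9686228, lay 430 bp downstream of another start, with 74.1, in replicate 1's list, and 29.6, in replicate 2's ranked list only, and 122 in the main list. In replicate 2's thresholded list nej is the reason btd counts as having an entry within 10 kb.

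**Figure D1:**
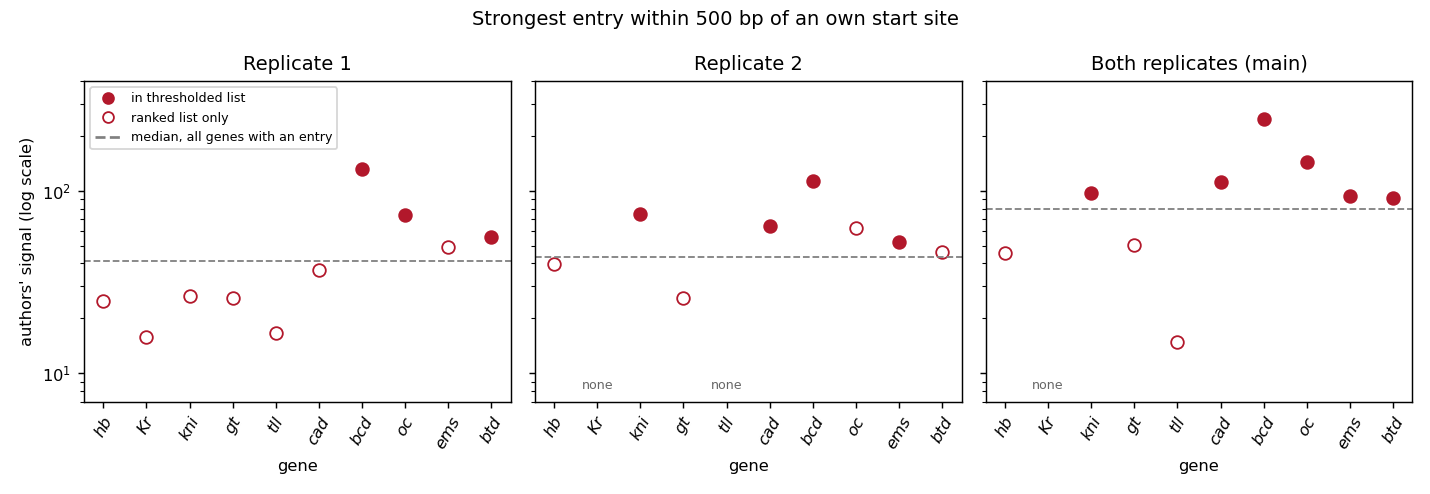
Strongest own-promoter entry of each gene (x axis) by signal (y axis, log scale) in replicate 1, replicate 2 and the main ranked list, where filled points are entries that also passed the threshold and the dashed line is the median over all genes with an entry within 500 bp of a start, shared or not. bcd is highest in each panel, and hb, gt and tll lie below the line wherever they have a point.

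**Figure D2:**
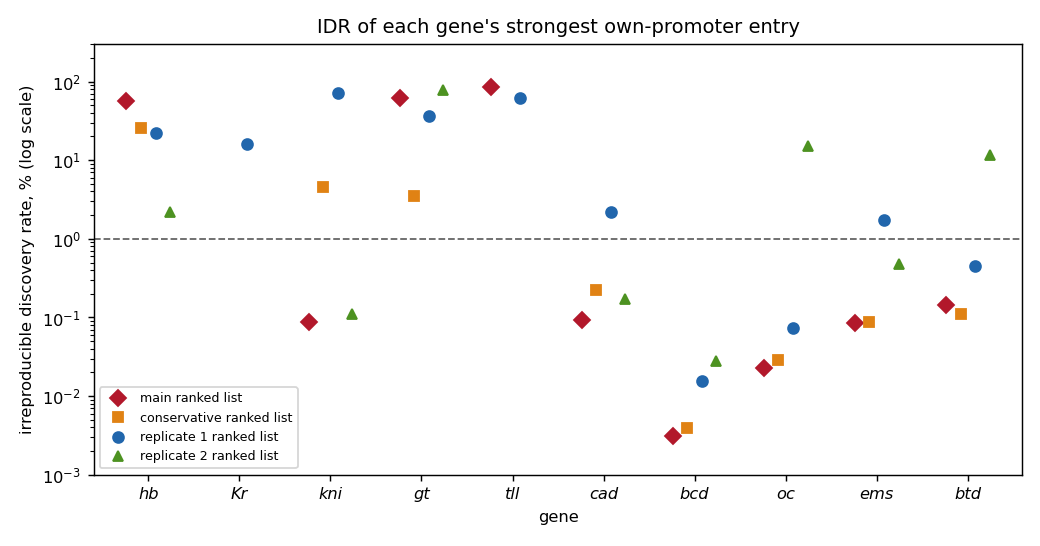
IDR in percent (y axis, log scale) of the same strongest entry in each ranked list for each gene (x axis), with the 1% level dashed. bcd lies below the line in all 4 lists, while kni, cad, oc, ems and btd each lie above it in at least 1 replicate's or the conservative list.

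Set side by side, the replicates gave different members of the list. Replicate 1's thresholded list had own-promoter entries at bcd, oc and btd, 3 of 10 against 30.8% of all genes. Replicate 2's had them at bcd, cad, kni and ems, 4 of 10 against 30.4%. The conservative list had 5 of 10, without kni, against 36%. Within 10 kb the counts were 4 of 10 against 66.3% in replicate 1, 5 of 10 against 66% in replicate 2 and 5 of 10 against 70.3% in the conservative list. The own-promoter counts of the replicates were within 1 gene of the share over all genes, and the counts within 10 kb were below it.

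Of the 9 main-list entries that were at an own promoter or in a flank, 1 (bcd) overlapped an entry in both replicates' thresholded lists, 2 one in replicate 1 only, 3 one in replicate 2 only and 3 neither. That is 11.1%, against 64.6% of the whole main list and 46.9% of the 3369 main-list entries with signals in the same range, from 59.0 to 246. The top of that range is bcd alone, and the next strongest of the 9, at oc, had 143. The 3369 are therefore not matched to the 9 on signal. Counting the 3 entries at neighbour promoters too, 3 of 12 (25%) were in both, the other 2 being the Pomp entry and the stronger nej entry. By the longer ranked lists, 11 of the 12 overlapped an entry of both replicates, against 99.4% of the whole main list, and the exception was the downstream entry of oc.

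The ranked lists placed an own-promoter entry at 9 of 10 genes in the main list against 69.2% of all genes, at 8 in the conservative list against 69.1%, at 10 in replicate 1 against 68.4% and at 8 in replicate 2 against 68.6%. Kr was the gene missed by the main list, and Kr and tll the genes missed by the conservative and replicate 2 lists. Within 10 kb the counts were 9 of 10 in the main list against 90.1%, 9 in the conservative list against 89.9%, 10 in replicate 1 against 93.9% and 9 in replicate 2 against 90.6%, which are the shares of all genes. The 201 main ranked entries of the windows comprised 19 at own promoters, 11 at neighbour promoters, 45 in gene bodies, 66 upstream and 60 downstream. Of the 45 in gene bodies 0 passed the threshold, the strongest having a signal of 55.9, at cad. Over all arms the main thresholded list held 5720 entries and its ranked list 77377, so most ranked entries anywhere do not pass. Entries per 10 kb of window ran from 0 at Kr and 3.21 at oc to 12.3 at ems, with a median over all genes of 9.74.

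**Figure D3:**
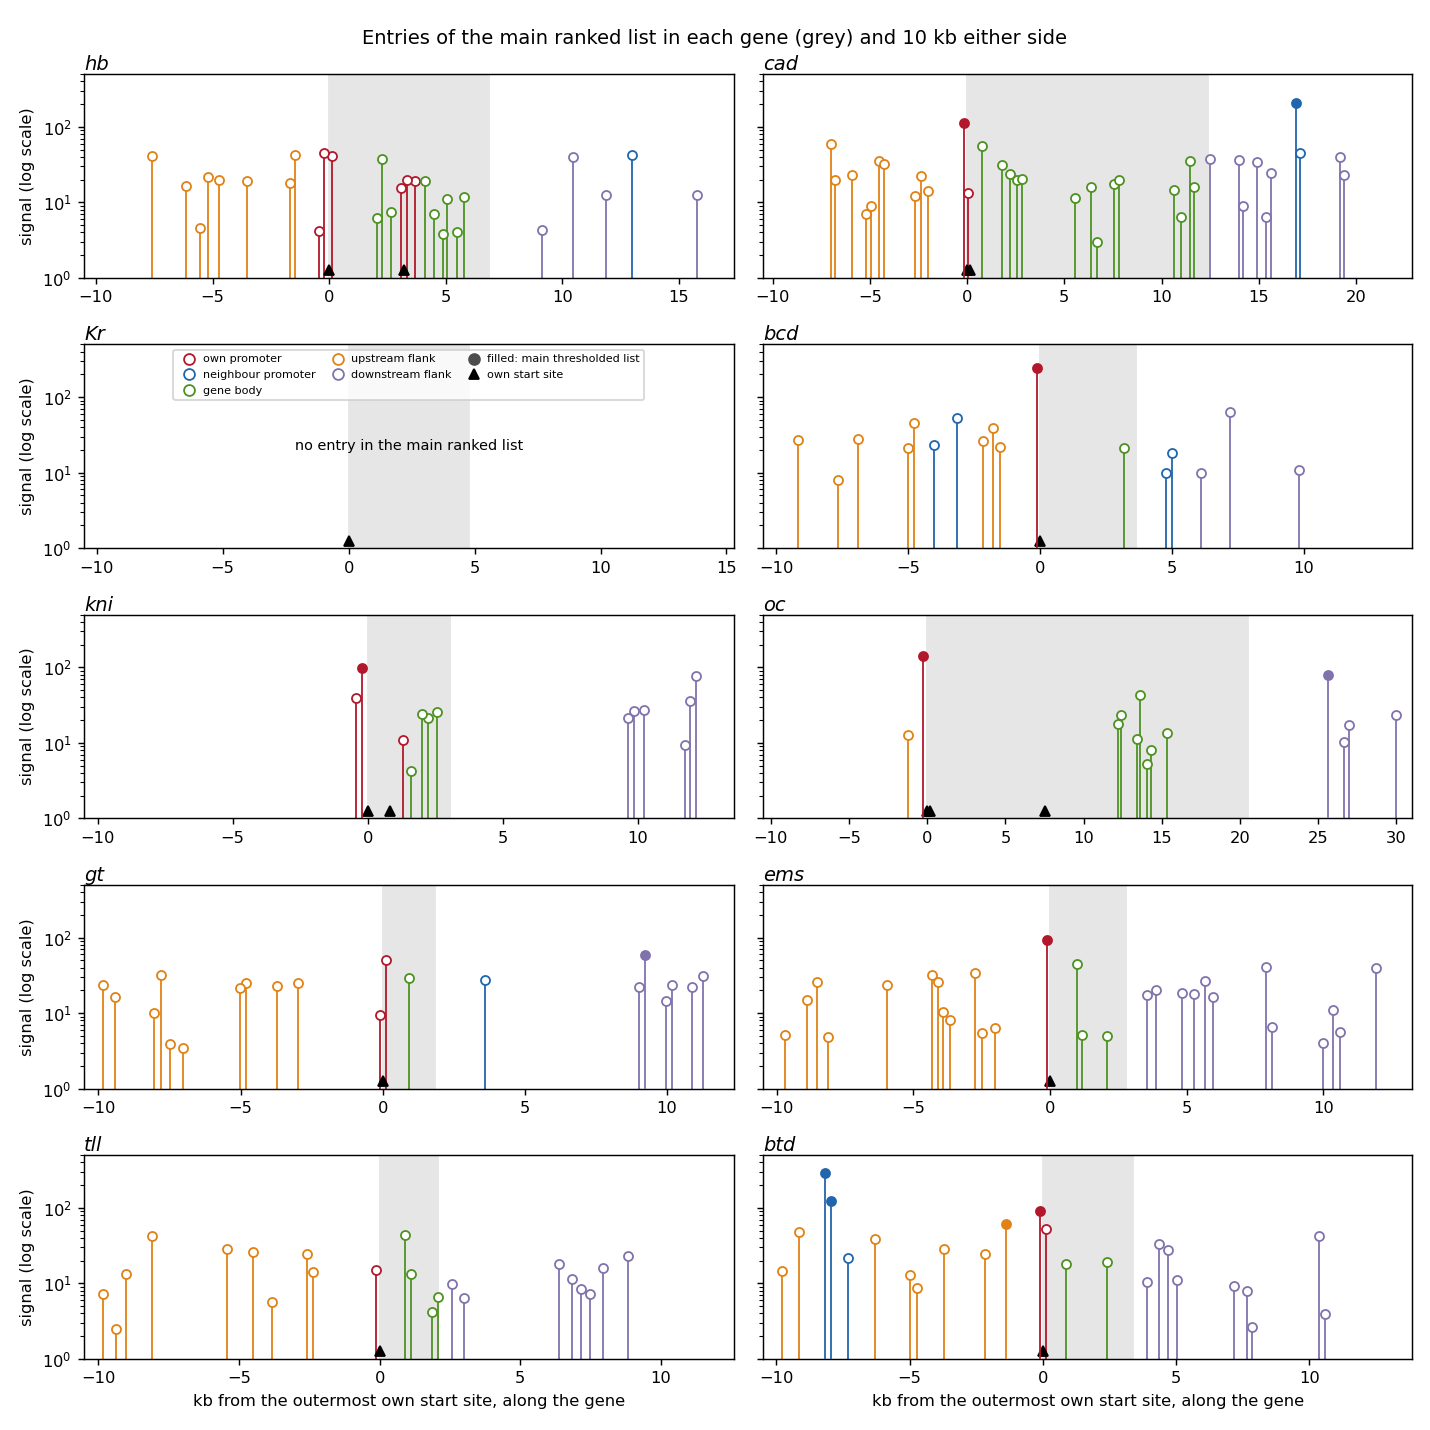
Entries of the main ranked list in each gene (grey bar) and 10 kb on either side, by distance in kb from the outermost start site (x axis) and signal (y axis, log scale), coloured by class and filled where the entry is in the main thresholded list. Filled points sit at the starts of kni, cad, bcd, oc, ems and btd, hb, tll and Kr have none, and no gene body holds one.

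The own-promoter summits of the 6 genes in the main list were set back from the start site. All 6 lay 100 bp or more upstream, from 104 bp at btd to 270 bp at oc. Among the 2338 other genes with a promoter entry at a start shared with no other gene, 501 (21.4%) had the strongest summit that far upstream, and the median of all 2344 was 34 bp upstream. Of the 920 other genes with signals between 91.2 and 246, the range of the 6, 239 (26.0%) did. The same held for 5 of 5 in the conservative list (21.3% of other genes), 3 of 3 in replicate 1 (20.4%) and 4 of 4 in replicate 2 (21.8%), although these lists are made from overlapping inputs. Below the threshold the ranked lists did not all have upstream summits, with btd at 91 bp and hb at 98 bp downstream in replicate 2 and gt at 114 bp downstream in the main ranked list. The distance of 100 bp was chosen after the positions had been seen.

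**Figure D4:**
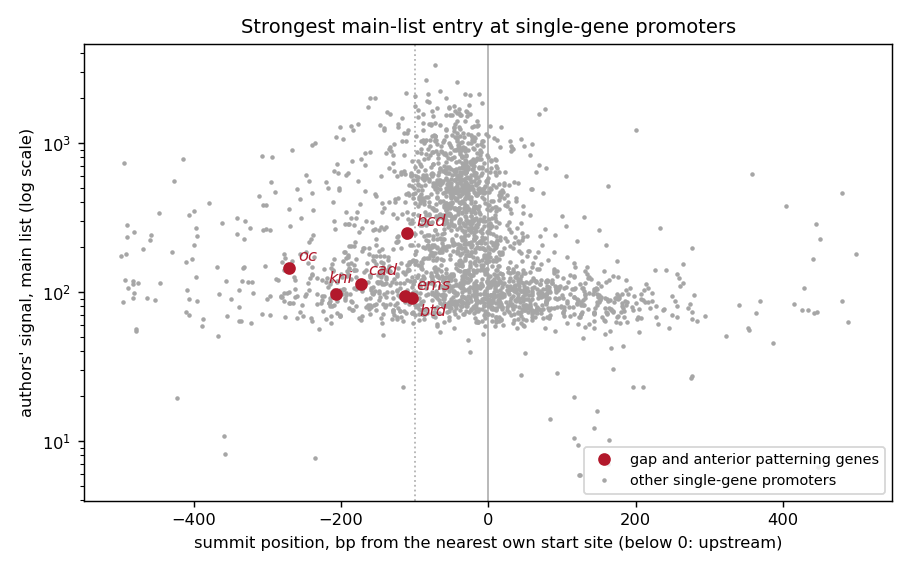
Position of the strongest main-list summit from the nearest start site in bp (x axis, negative is upstream, dotted line at 100 bp upstream) against signal (y axis, log scale), for the 6 genes in red and the other genes with a promoter of their own in grey. The red points lie from 104 to 270 bp upstream, while the grey points are densest just upstream of the start.

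Base composition at the summits separated bcd from the other own-promoter entries. The 101-bp windows had 21.8% G+C at bcd, 50.5% at kni, 50.5% at cad, 55.4% at oc, 58.4% at ems and 67.3% at btd. Over all main-list summits the median was 41.6%, with the middle part of the distribution (quartiles) from 34.7% to 48.5%, so bcd lay at the 1.94th percentile and btd at the 99.7th, with the other 4 above the upper quartile. The downstream entry of oc was also G+C-rich, at 63.4%, and the weaker nej entry was A+T-rich, at 23.8%. Across the list the median G+C was 39.6% for entries of 250 bp or less, 44.6% for those of the commonest width and 37.6% for wider ones.

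**Figure D5:**
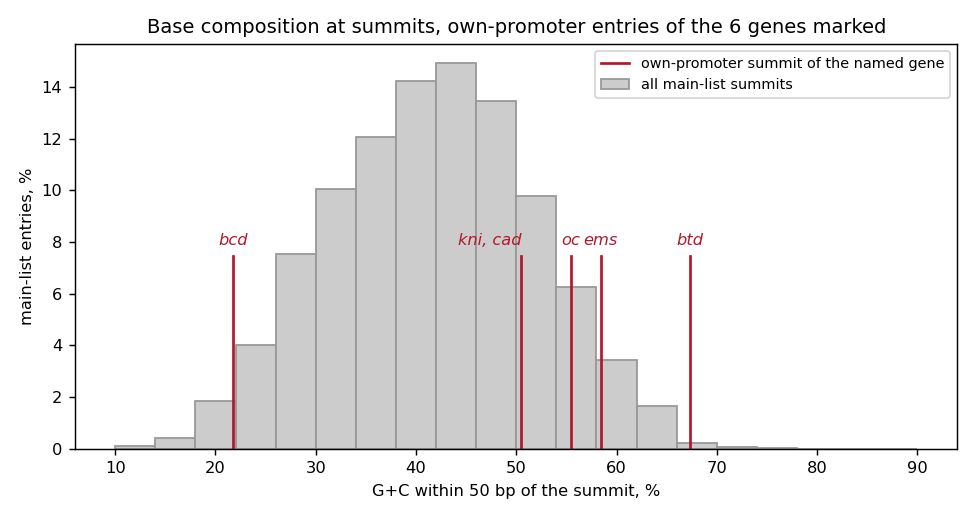
Share of main-list entries (y axis, percent) by G+C content of the 101 bp around the summit (x axis, percent), with the own-promoter summits of kni, cad, bcd, oc, ems and btd marked in red. bcd stands in the lower tail and the other 5 above the upper quartile of 48.5%.

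Sites of proteins that act in the early embryo were sought on both strands in the same 101-bp windows: TAATCC for Bicoid, CAGGTA for Zelda, TTTTTTA for Hunchback, TTTATG for Caudal, TTAATTA for Hox proteins, TGATTTAT for Hox with Exd, GAGAGAG for GAGA factor (Trl), TATCGATA for DREF, GGTCACAC within the site of M1BP and CACGTG for E-box proteins. None of these holds another within it, and overlapping matches of 1 site count as 1 window. GAGAGAG was in 4 of the 12 windows, at the own promoters of oc and kni, in the upstream flank of btd and in the downstream flank of oc, against 3.25% of all main-list windows. Several overlapping matches made up the run in the oc promoter printed above. At 100 bp on either side of the summit the btd promoter joined them, which gave 5 of 12 against 6.24%. At 25 bp on either side oc alone kept a match, 1 of 12 against 1.78%. None of the 4 entries with a match in the 101-bp windows was in both replicates' thresholded lists. The oc promoter entry was in replicate 1's, the kni entry in replicate 2's, and the flank entries of btd and oc in neither. The conservative list lacked the kni entry and the downstream entry of oc. GAGA factor is a promoter-bound protein known to open chromatin at developmental genes with paused polymerase.

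The commonest of these sites in the whole list, TATCGATA, was in 0 of 12, against 12.8%, and GGTCACAC in 0 of 12, against 3.78%. The Hox site was in 0 of 12 against 3.69% and the Hox-Exd site in 0 of 12 against 0.892%. With 100 bp on either side of the summit the Hox-Exd site was in 2 of 12 windows, against 1.73%. Those 2 were the kni promoter and a nej entry in the btd window. The Hox site was still in 0 of 12 at that width, against 8.02%. In the 101-bp windows the Bicoid site was in 0 of 12 against 2.17%. The Zelda site was in 0 of 12 against 2.55% and the E-box in 0 of 12 against 1.64%. The Hunchback and Caudal sites were in 1 window each, those of the weaker and the stronger nej entry, against 9.06% and 7.73%. Any listed site was in 6 of 12 against 39.6%. A match is a string of letters in a window and not a measured site, and with 12 windows none of the sites carried by a few percent of the list would be met often.

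The rest of the pathway was read from 28 other genes, all found in the annotation. They belong to the gap, head and terminal systems and to the maternal posterior and RNA-localisation genes, with zld besides. In the main list 15 of 28 had an entry within 500 bp of an own start site, against 36.2% of all genes, and 22 of 28 had one within 10 kb, against 70.9%. The 15 were unevenly spread. Of the gap and head genes D and cnc had one, and hkb, knrl, nub, pdm2, slp1, slp2 and croc did not. Of the posterior and RNA-localisation genes exu, stau, nanos, pum, brat, vas and tud had one, and osk and swa did not. The others were zld and, of the terminal system, tor, Raf, Dsor1, cic and gro. For 7 of the 15 the strongest entry was shared with the start of another gene. The 3 strongest were of that kind. nanos, the posterior determinant that represses maternal hb translation, had 1498 at a start shared with CG11779. brat, its partner in translational repression, had 1084 at one shared with Polr1D, and exu, needed to localise bcd RNA, had 658 at one shared with galla-1. The median of the strongest signal within 500 bp of an own start was 124 for the 15, against 233 over all genes with an entry, shared starts included. Of those with no main-list entry within 10 kb, the first in the alphabet were knrl, nub and rl. knrl is the kni-related nuclear receptor gene, nub a POU-domain gene with an early gap-like domain, and rl the MAP kinase gene downstream of Torso. slp1, slp2 and tsl had none in the main list either. Elsewhere knrl did have an upstream-flank entry, in the conservative list (107) and in replicate 2's thresholded list (71.3). For rl no list held an entry within 10 kb, ranked ones included, and whether reads can be placed uniquely there was not tested. Within 10 kb of the terminal gap gene hkb the entry lay at the promoters of CG1103 and Skp2.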

How the data were processed

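Peak lists of 2 biological replicates of whole Scr-eGFP embryos were used. Per the submitters' file notes, a replicate's lists came from its own alignments plus control alignments, and the series-level lists pooled both replicates with that control. The authors' score of an entry is a capped form of the IDR, up to 1000, and 830 is the lowest in the thresholded lists. The deposited −log10 IDR values were capped at 5. The signal was deposited by the authors without a stated scale. Aligner and peak caller: not given in the sources used here. In each ranked list 8 further columns were not used.

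Genes came from Ensembl BDGP6.54, release 115, and sequence from release 6 of the genome (RefSeq), whose arm lengths fit the entries. Summits, the deposited offsets from each start, were assigned with Python 3.11.15, pandas 2.3.3 and numpy 2.4.6, a step tested on simulated data. The main list is the thresholded series-level list that is not the conservative one. Entries overlapping by 1 bp or more were counted as shared.

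With 1 group there was no comparison between groups, no test and no p-value. All 10 genes were named. Of the other pathway genes, the 3 with the strongest own-promoter entry and the first 3 in the alphabet without an entry were named, and every neighbour whose promoter held a main-list summit. Further genes were named after their values were seen. The genes, lists and sites were chosen with earlier results of these data known. Alternatives were the conservative and per-replicate lists, other promoter, flank and site windows, and other rules of overlap.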

Additional observations from a re-analysis of the deposited data

How the results depend on the processing

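Over 49 recalculations of 8 results, 38 gave a count within 1.5 times the one reported. The 6 genes with an own-promoter entry became 3 to 4 when 1 replicate's own list was used alone, and the position 100 bp or more upstream, which was chosen after seeing the data, held for 3 to 4. The 7 genes with an entry within 10 kb became 4 to 5, and 0 when the gene body alone was counted. The 3 entries at neighbour promoters became 1 with a promoter of 250 bp on either side, 0 within 2 kb of the gene, and 2 to 3 with 1 replicate's list. The 3 entries shared by both replicates became 11 with the ranked replicate lists, which hold far more entries. The 6 summit windows with a listed site became 3 in the conservative list, 1 to 2 with 1 replicate's list and 1 with 25 bp on either side of the summit. The 9 genes with a ranked entry at their own promoter became 8 to 10, and the 15 pathway genes 11 to 13. With a promoter of 250 bp on either side the own-promoter entry of oc was lost, and with a flank of 20 kb hb was gained. No paired analysis was possible because there is 1 group. Depth could not be read from the lists, so whether a missing entry reflects depth was not tested.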
